A study of Sus scrofa with 6 samples.

Results

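The SOX genes encode transcription factors that bind DNA through a shared HMG box, and they are sorted into groups by the sequence of that box. SOX3 belongs to the B1 group, which is known for keeping neural cells in the progenitor state. SOX5 and SOX6 form part of the D group, which has no activation domain of its own and is known for timing neuronal and oligodendrocyte differentiation. In the ventral midbrain SOX6 is known from dopaminergic progenitors and from a subset of dopaminergic neurons. SOX9, of the E group, is a textbook factor of the switch from neurogenesis to gliogenesis and of astrocytes, and SOX11, of the C group, is a factor of newborn neurons.

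Of such genes, 5 were described in porcine midbrain-like organoids (pMLOs), by library, by day and in cells defined by marker genes. The list held 7 symbols, SOX2, SOX3, SOX4, SOX5, SOX6, SOX9 and SOX11, and members were found by symbol among the 30477 genes of the count matrices. SOX3 (ENSSSCG00000022501), SOX5 (ENSSSCG00000000567), SOX6 (ENSSSCG00000034191), SOX9 (ENSSSCG00000017251) and SOX11 (ENSSSCG00000008649) were matched, whereas SOX2 and SOX4 were not matched by symbol and were not analysed here.

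The pMLOs were grown from the porcine embryonic stem cell line IVF_1_ pESC_FIW and were dissociated for droplet-based 3′ single-cell RNA sequencing on day 11 (D11), day 28 (D28) and day 45 (D45). Each day has a pair of libraries, named A and B. All 6 libraries shared neural induction with SB431542 and Noggin, ventral and midbrain patterning with SHH-C24II and CHIR99021, and FGF8 with BDNF and ascorbic acid. The D28 and D45 organoids were in addition embedded in Matrigel and matured with BDNF, GDNF, ascorbic acid, db-cAMP and DAPT, an inhibitor of Notch signalling, so that day and medium cannot be told apart between D11 and the later days. All data come from a single cell line, and the number of organoids pooled per library is not given in the sources used here. The study calls the replicates biological duplicates, and since nothing ties A and B to separate differentiations, the p-values measure the spread between these libraries only.

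After filtering, 102940 cells were kept, between 13870 and 21553 per library, with 106805311 to 180034791 unique molecular identifiers (UMIs, counted transcripts) per library and a median of 2300.5 to 10757 UMIs per cell. Cells were sorted into 4 exclusive groups by marker UMIs. These were CORIN cells (at least 2 UMIs of CORIN, a floor plate protease), STMN2 cells (at least 3 UMIs of STMN2, a neuronal microtubule regulator), TH cells (at least 2 UMIs of TH, tyrosine hydroxylase, with any STMN2) and AQP4 cells (at least 2 UMIs of AQP4, the astrocyte water channel). In the order D11 A, D11 B, D28 A, D28 B, D45 A and D45 B, which is kept for all lists of 6 values, CORIN cells numbered 4039, 5333, 1327, 1845, 132 and 335, STMN2 cells 1114, 1541, 4999, 4933, 6284 and 5105, TH cells 351, 400, 633, 647, 341 and 621, and AQP4 cells 0, 0, 29, 11, 484 and 701. The labels name the cell type as midbrain dopaminergic neurons, and TH cells were 1.70% to 4.66% of the kept cells. TH cells also held NR4A2, a factor of midbrain dopaminergic neurons, at 24.0 to 155 CPM (counts per 1e6 UMIs) and SLC6A3, the dopamine transporter, at 1.25 to 29.8 CPM, and PITX3 was at 0 in them at D11.

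Cells of other types lay inside these groups, and their markers moved with day. The replicates of D28 stood apart from each other: the summed level of the fibroblast markers LUM, DCN, COL1A1 and COL3A1 was 916 CPM in D28 A and 109 CPM in D28 B. In CORIN cells the same sum was 18.7, 19.3, 410, 62.6, 1692 and 2795 CPM, and 32.6% and 59.1% of the CORIN cells of D45 A and B held at least 3 fibroblast-marker UMIs. Of the few AQP4 cells at D28, 86.2% (A) and 54.5% (B) did so. In STMN2 cells the sum of the oligodendrocyte-lineage markers OLIG1, OLIG2, PDGFRA and MBP went from 4.10 and 2.24 CPM at D11 to 309.6 and 262 CPM at D45, and the sum of 7 neuron markers from 7239 and 7801 CPM to 3463 and 3946 CPM. All markers of each list were above 0 in these sums. The oligodendrocyte-lineage sum was also higher at D45 in CORIN cells, from 1.24 and 1.04 CPM at D11 to 190 and 237 CPM, and it stood at 542 and 395 CPM in the LUM cells of D45, which hold at least 2 UMIs of that gene. In STMN2 cells of D45 most of it was MBP, with 202 and 169 CPM, whereas in CORIN cells PDGFRA, which fibroblasts also express, made up 170.1 and 220.3 CPM of it and OLIG2 was at 0. At least 3 UMIs of this list were held by 30.3% and 44.5% of the CORIN cells of D45 A and B. Calls that change without the cells that hold such markers are given both ways. Between any pair of libraries 55 to 119 cell barcodes were shared, at most 0.650% of the smaller library.

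The coding sequences of the HMG box show how members are related. The lines below hold the same stretch of 25 codons of the box in 4 of the genes (75 bases, coding strand, RefSeq annotation of Sscrofa11.1), and capitals mark the 37 bases that are the same in all 4.
SOX3 (chrX:115020078-115020152, minus strand): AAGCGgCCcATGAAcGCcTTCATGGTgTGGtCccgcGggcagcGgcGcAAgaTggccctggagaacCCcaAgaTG
SOX5 (chr5:50151548-50151622, plus strand): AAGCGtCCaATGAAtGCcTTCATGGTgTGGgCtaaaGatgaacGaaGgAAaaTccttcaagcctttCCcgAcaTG
SOX6 (chr2:43050435-43050509, plus strand): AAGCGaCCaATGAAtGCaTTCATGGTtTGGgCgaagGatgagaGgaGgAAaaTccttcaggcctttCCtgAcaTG
SOX9 (chr12:8646923-8646997, minus strand): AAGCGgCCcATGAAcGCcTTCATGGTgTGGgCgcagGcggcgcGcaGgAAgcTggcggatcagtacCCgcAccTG
Over the 79 encoded residues of the box that were compared, SOX5 and SOX6 were 92.4% identical, while all other pairs of these genes lay between 45.6% and 58.2%. The gene models differ as much. SOX3 has its coding sequence in 1 exon, within a gene of 2898 bases (chrX:115017704-115020601), and SOX9 in 3 exons within 5162 bases (chr12:8642154-8647315). SOX5 spans 1006514 bases with 45 annotated transcripts (chr5:49159950-50166463) and SOX6 621434 bases with 50 (chr2:42447391-43068824). Because 3′ counts depend on where each gene's transcripts end and how reads inside long introns are counted, levels are compared here within a gene and not between genes.

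Differences were tested with edgeR's quasi-likelihood test on counts summed per library, with Benjamini-Hochberg adjustment over all genes tested and a threshold of 0.05, and this is the test behind each adjusted p given here. Where a left-out library leaves a day with 1 library, that day adds no spread of its own to the test. In whole organoids 0 of 5 members were called at D28 against D11, 0 at D45 against D28 and 1 (SOX9) at D45 against D11, where 23.1%, 9.4% and 34.6% of all tested genes were called. In STMN2 cells the members called were 0, 0 and 1 (SOX6) in the same order, against 10.6%, 1.2% and 23.8% of all genes. In CORIN cells 2 members were called at D28 against D11 and 0 at D45 against D28, against 25.8% and 17.3%, and in TH cells 1 and 0, against 15.8% and 1.32%. Between cell groups 2 members were called for CORIN against STMN2 cells (45.1% of all genes), 3 for AQP4 against STMN2 cells (37.4%), 1 for AQP4 against CORIN cells (0.695%) and 3 for TH against STMN2 cells (25.7%). The test of whether the CORIN-to-STMN2 difference changed from D11 to D28 called 2 members and 22.4% of all genes.

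In the comparisons with 0 calls in edgeR's quasi-likelihood test, no member was at an unadjusted p under 0.05 for D28 against D11, in whole organoids or in STMN2 cells. SOX3 and SOX6 were for whole organoids at D45 against D28, SOX6 in STMN2 and in CORIN cells, and SOX5, SOX6 and SOX9 in TH cells. Of these, DESeq2 called SOX6 in whole organoids, in STMN2 cells and in TH cells, and SOX5 in TH cells. SOX3 was tested in whole organoids, in STMN2 cells and in some comparisons between groups, and was under the filter on low counts in the others. AQP4 cells were not compared between D45 and D28, because D28 B had only 11 of them at the gate used.

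Whether the gene models used for counting reach the 3′ end of SOX3 was not checked, so low counts are not read as absence. SOX3 had few UMIs in every library. Its level over all kept cells was 0.202, 0.144, 0.0749, 0.365, 0.828 and 0.701 CPM, from 32, 26, 8, 46, 98 and 89 UMIs, and at most 0.472% of the cells of a library held a UMI of it. It was highest at D45, where the replicates lay above all earlier ones, but neither D45 against D11 (log2 fold change 1.73 ± 0.57 (SE), adjusted p = 0.0539) nor D45 against D28 (1.68 ± 0.58, adjusted p = 0.104) passed the threshold of 0.05 of edgeR's quasi-likelihood test. The first was called in 5 of 14 alternatives, among them DESeq2 (1.76, adjusted p = 0.0260), thinned cells (1.67, adjusted p = 0.0491) and leaving out D28 A (1.79, adjusted p = 0.0009) or D28 B (1.73, adjusted p = 0.00109). The second was 3.06 without D28 B and 1.08 without D28 A. In CORIN cells, 4, 4, 0, 5, 0 and 0 UMIs of SOX3 were counted. The count of 0 in 1327 CORIN cells of D28 A allows a level of up to 0.139 CPM and that in 132 cells of D45 A up to 1.37 CPM, limits that cover counting error only. Within STMN2 cells SOX3 was at 0.410, 0, 0.0527, 0.555, 0.999 and 1.04 CPM, and TH cells of D45 held 4 and 5 UMIs, and no group exceeded 1.04 CPM.

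SOX5 was detected in every cell group. Over all kept cells its level was 549, 447, 230, 537, 555 and 517 CPM. D28 A was far below the other libraries, and no pair of days passed the test. The log2 fold change was -0.68 ± 0.33 for D28 against D11 (adjusted p = 0.176), 0.38 ± 0.33 for D45 against D28 (adjusted p = 0.458) and -0.30 ± 0.33 for D45 against D11 (adjusted p = 0.510). Without D28 B the first of these was -1.26 and the second 0.95, and without D28 A they were -0.26 and 0.014. The estimate for D28 thus rests on which replicate is used.

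Across the cell groups SOX5 followed an order, described here by the mean of the 2 replicates. At D11 it was 608 ± 82.3 CPM (SD, n = 2) in CORIN cells, 253 ± 50.1 CPM in STMN2 cells and 125 ± 28.6 CPM in TH cells, with no overlap between groups. At D28 CORIN cells held 337 and 649 CPM, STMN2 cells 156 and 404 CPM and TH cells 72.1 and 168 CPM, and the ranges overlapped because D28 A was lower than D28 B in each group. The few AQP4 cells of D28 held 408 and 581 CPM, with 93.1% and 62.9% of these SOX5 UMIs in fibroblast-marker cells. At D45 AQP4 cells were highest with 893 and 812 CPM, STMN2 cells held 462 and 443 CPM, and TH cells 339 and 236 CPM. CORIN cells of D45 split, with 571 CPM in A and 220 CPM in B, and without the fibroblast-marker cells they held 815 and 386 CPM.

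The tests between groups used both sums of a library with the library as a block. SOX5 was higher in CORIN than in STMN2 cells by 0.85 ± 0.28 on the log2 scale (adjusted p = 0.0391), and higher in AQP4 than in STMN2 cells by 1.25 ± 0.17 (adjusted p = 0.00176, 3 libraries). It was lower in TH than in STMN2 cells, with a difference of -0.88 ± 0.09 (adjusted p = 0.000443), in 6 of 6 libraries. TH cells are taken at any STMN2 level, and their 7 neuron markers summed to 9709, 10840.5, 8807, 6310, 4896 and 7028 CPM. In STMN2 cells the same sum was 7239, 7801, 6453, 4424, 3463 and 3946 CPM. The groups thus differ in neuron content in each TH to STMN2 comparison given here, and its part was not tested. The CORIN difference did not pass when D11 A, D11 B, D28 A, D28 B or D45 A was left out (log2 fold change 0.66 to 0.90, adjusted p from 0.0702 to 0.128), and it was 1.68 in cells thinned to 1500 UMIs (adjusted p = 0.00119). In tests on thinned cells the gates were also applied to the thinned counts, so that fewer cells entered them, with 910 and 992 CORIN cells and 35 TH cells in each library at D11, while thinned percentages of cells keep the gates of the full counts. AQP4 against CORIN cells gave 0.89 ± 0.35 (adjusted p = 0.298), which passed without D28 A (1.21, adjusted p = 0.0223). Between days within a group, none of the 7 fitted comparisons called SOX5, the largest estimate being 1.19 ± 0.35 in TH cells at D45 against D28 (adjusted p = 0.109), and several of these estimates rest on which D28 library is used. The TH value was called in DESeq2 (adjusted p = 0.0157) and without a filter on low counts (adjusted p = 0.00262), and it was 1.78 without D28 B and 0.77 without D28 A. At D28 against D11 the value was -0.78 without D28 B and 0.36 without D28 A in STMN2 cells, and -0.88 and 0.13 in TH cells. In STMN2 cells D45 against D28 was 1.31 without D28 B and 0.21 without D28 A, and D45 against D11 was 0.57 without D28 A and 0.53 without D28 B.

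**Figure D1:**
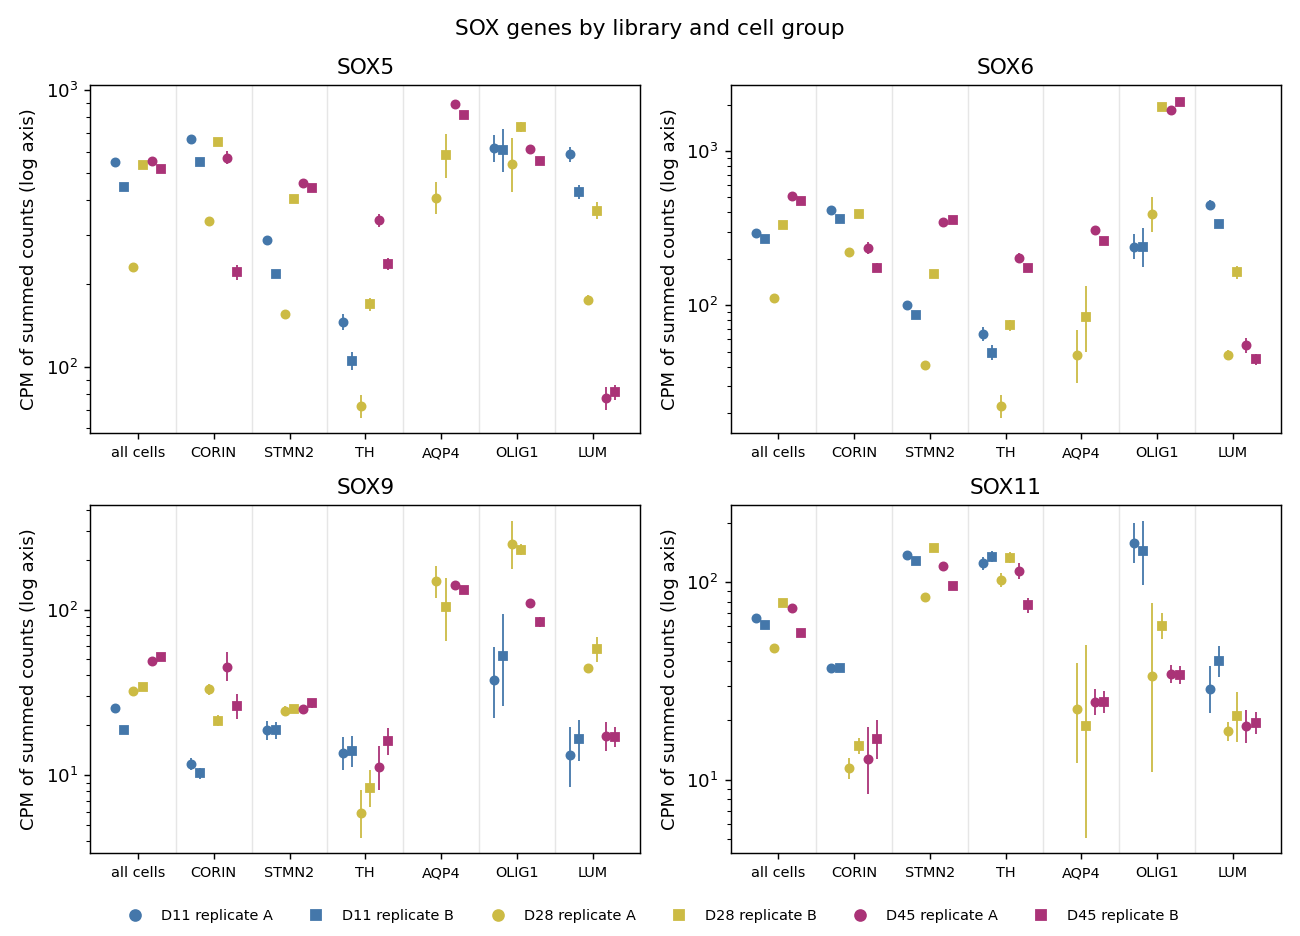
Level of SOX5, SOX6, SOX9 and SOX11 in each library, in all kept cells and in cells gated on CORIN, STMN2, TH, AQP4, OLIG1 or LUM. Points give CPM of summed counts on a log axis (circle, replicate A; square, replicate B) and bars the exact 95% Poisson interval, which covers counting error only; groups under 10 cells are not drawn. SOX6 reaches 1935, 1837 and 2092 CPM in the OLIG1 cells of D28 B, D45 A and D45 B, SOX9 is highest in AQP4 and OLIG1 cells, and SOX11 in STMN2 and TH cells apart from the 40 and 17 OLIG1 cells of D11.

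SOX6, like SOX5, was higher in CORIN than in STMN2 cells at D11. Over all kept cells its level was 294, 268, 111, 332, 512 and 473 CPM. The D45 libraries were above all others, yet D45 against D28 (1.06 ± 0.40, adjusted p = 0.125) and D45 against D11 (0.40 ± 0.39, adjusted p = 0.470) did not pass the test. D45 against D28 was 0.58 without D28 A and 1.88 without D28 B, and D45 against D11 was 0.45 and 0.39 in the same order.

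In CORIN cells SOX6 was at 413, 363, 222, 392, 236 and 175 CPM, and in STMN2 cells at 100, 86.8, 41.0, 160, 347 and 359 CPM. At D11 CORIN cells were thus far above STMN2 cells, and at D45 they were below them. The order at D45 turned without the oligodendrocyte-marker cells, with 318 and 281 CPM in CORIN against 178 and 203 CPM in STMN2 cells, and it stayed without the fibroblast-marker cells, with 340 and 327 CPM against 353 and 374 CPM. Over all 6 libraries the difference of CORIN from STMN2 cells was 1.31 ± 0.50 on the log2 scale and did not pass (adjusted p = 0.0661). Without D45 A or without D45 B it did (1.63, adjusted p = 0.0387, and 1.68, adjusted p = 0.0210). The difference also passed without the fibroblast-marker cells (1.51, adjusted p = 0.0137), without the oligodendrocyte-marker cells (1.76, adjusted p = 0.000751) and in DESeq2 (1.29, adjusted p = 0.0118). So it did with all barcodes (1.35, adjusted p = 0.0497) and at the higher gate threshold (1.52, adjusted p = 0.0340). In thinned cells, where D45 A did not enter the fit, it was 2.66 (adjusted p = 0.000651). The other 10 of 18 alternatives did not pass, among them those without D28 A (1.02, adjusted p = 0.170) and without D28 B (1.24, adjusted p = 0.155). Within CORIN cells the change was -0.42 ± 0.25 from D11 to D28 (adjusted p = 0.247) and -0.62 ± 0.25 from D28 to D45 (adjusted p = 0.129), and the second was gone when the fibroblast-marker cells were left out (0.0021, with 340 and 327 CPM at D45). Both changes moved with the D28 library used. The first was -0.80 without D28 B and -0.17 without D28 A. The second was -0.90 without D28 A, -0.26 without D28 B and -0.69 without a filter on low counts (adjusted p = 0.0447).

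Within STMN2 cells SOX6 was the only member called between D11 and D45, with a rise of 1.60 ± 0.48 on the log2 scale (adjusted p = 0.0476) and no overlap between the days. Few cells held much of the SOX6 counted at D45. Cells with at least 3 oligodendrocyte-lineage UMIs were 6.95% and 7.68% of the STMN2 cells of D45 A and B and held 55.1% and 51.5% of their SOX6 UMIs. Depth differs between cells, and the share of all UMIs in the cells with these markers is not given here. Without these cells SOX6 was at 100.1, 86.8, 41.3, 130.35, 178 and 203 CPM in STMN2 cells, still highest at D45, and the change from D11 was 0.71 (adjusted p = 0.220). The call was also lost when any of the D11 or D45 libraries was left out (log2 fold change 1.56 to 1.72, adjusted p from 0.162 to 0.2396) and at other gate thresholds, with all barcodes (1.56, adjusted p = 0.0575) and in thinned cells (1.16, adjusted p = 0.0985). D45 against D28 gave 1.77 ± 0.48 (adjusted p = 0.0995), and it was 1.18 without D28 A and 2.87 without D28 B.

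TH cells held less SOX6 than STMN2 cells in each library, with 64.9, 49.2, 22.2, 74.3, 203 and 174 CPM. The difference was -0.81 ± 0.07 on the log2 scale (adjusted p = 0.000228), and without the oligodendrocyte-marker cells it was -0.58 (adjusted p = 0.00348). In thinned cells it was -0.80 and did not pass (adjusted p = 0.128). Within TH cells the D45 libraries were above all earlier ones, and D45 against D28 gave 1.91 ± 0.41 (adjusted p = 0.0598). This passed in DESeq2, without a filter on low counts and at the higher gate threshold. It was 1.35 without D28 A, 2.87 without D28 B and 1.55 (adjusted p = 0.0927) without the oligodendrocyte-marker cells. D28 against D11 gave -0.48 ± 0.41 (adjusted p = 0.475), with -1.45 without D28 B and 0.084 without D28 A.

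The highest SOX6 was found in the OLIG1 cells of D28 B and D45, a gate that is not exclusive of these 4 groups. Cells in none of the 4 groups held 66.7% and 68.7% of the SOX6 UMIs of D45 A and B, at 668 ± 57.5 CPM (SD, n = 2). They were 64.0% and 63.3% of the kept cells there. In cells with at least 2 UMIs of OLIG1, a factor of the oligodendrocyte lineage, SOX6 was at 240, 239, 391, 1935, 1837 and 2092 CPM, from 40, 17, 10, 230, 742 and 782 cells. These were 3.69% and 4.24% of the kept cells of D45 A and B and held 31.6% and 36.4% of their SOX6 UMIs. OLIG1 cells were deeper than most cells, with 10414977 of all 118380630 UMIs in D45 A and 10450627 of 126899867 in D45 B. Thinned to 1500 UMIs per cell, 87.3%, 76.9% and 80.7% of the OLIG1 cells of D28 B, D45 A and D45 B held a SOX6 UMI, against 19.5%, 3.96% and 4.56% of the cells with at least 2 UMIs of LUM, a fibroblast proteoglycan, in the same libraries (unthinned 97.4%, 92.9% and 96.3% against 56.2%, 17.2% and 20.2%, at medians of 12198.5 to 13582 UMIs per OLIG1 cell and 14137.5 to 17318 per LUM cell). In AQP4 cells SOX6 was at 307 and 262 CPM at D45, and AQP4 against STMN2 cells gave 0.01 ± 0.18 (adjusted p = 0.961). Without the oligodendrocyte-marker cells the same difference was 0.67 (adjusted p = 0.0168).

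**Figure D2:**
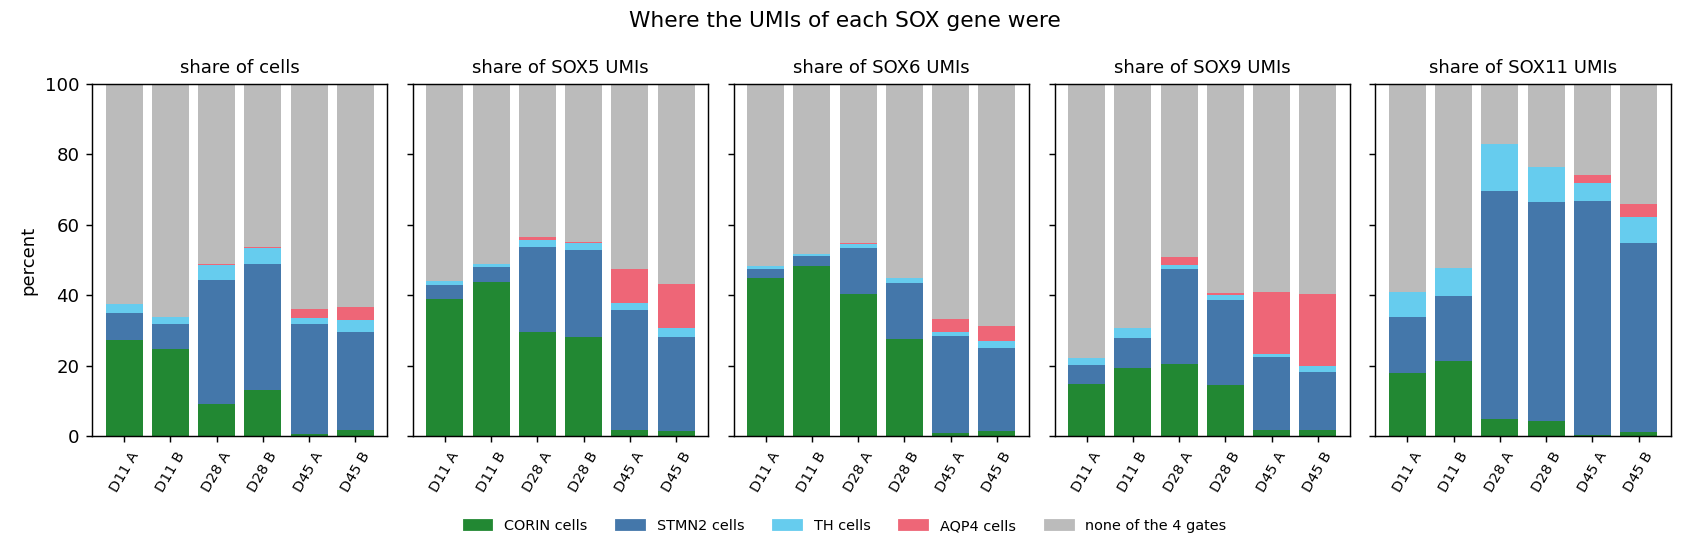
Share of the kept cells (left panel) and of the UMIs of SOX5, SOX6, SOX9 and SOX11 (other panels) that lay in CORIN, STMN2, TH and AQP4 cells or in none of these groups, as stacked bars in percent for each library. CORIN cells held 45.0% and 48.4% of the SOX6 UMIs at D11 and 0.853% and 1.44% at D45, whereas STMN2 cells held 16.0% and 18.3% of the SOX11 UMIs at D11 and 66.5% and 53.6% at D45. The groups changed in size as well. CORIN cells were 27.5% and 24.7% of the kept cells at D11 and 0.657% and 1.82% at D45, and STMN2 cells 7.57% and 7.15% at D11 and 31.3% and 27.7% at D45.

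SOX9 rose in whole organoids. Its level over all kept cells was 25.5, 18.8, 32.4, 34.2, 48.7 and 51.7 CPM, with no overlap between the days. D45 against D11 gave 0.77 ± 0.19 on the log2 scale (adjusted p = 0.0193), while the steps from D11 to D28 (0.33 ± 0.19, adjusted p = 0.2402) and from D28 to D45 (0.44 ± 0.19, adjusted p = 0.161) did not pass by themselves. Leaving out D11 A, D11 B, D45 A or D45 B gave 0.66 to 1.02 and an adjusted p from 0.0533 to 0.162, and thinned cells gave 0.54 (adjusted p = 0.0762), so that the call was lost in each of these. In organoids made of changing cell types, more cells with SOX9 and more SOX9 per cell cannot be told apart by this value.

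AQP4 cells stood out for SOX9. They held 148 and 103 CPM at D28, from 29 and 11 cells, and 140 and 132 CPM at D45, while STMN2 cells held 18.7, 18.6, 24.4, 25.1, 25.05 and 27.1 CPM. Of the SOX9 UMIs of the D28 AQP4 cells, fibroblast-marker cells held 89.3% in A and 63.6% in B. The difference of AQP4 from STMN2 cells was 2.64 ± 0.16 on the log2 scale (adjusted p = 0.000209, 3 libraries) and kept its direction and its call in all 15 alternatives, from 2.25 to 3.61. D28 A had too few AQP4 cells to enter the alternatives without fibroblast-marker cells (4 cells) and on thinned cells (1 cell). Against CORIN cells of the same libraries the difference of AQP4 cells was 2.00 ± 0.20 (adjusted p = 0.0421). Without the fibroblast-marker cells it was 1.25 (adjusted p = 0.00617), in a fit that held D45 A and B only. It did not pass without D45 A (adjusted p = 0.266) or D45 B (adjusted p = 0.205) or with all barcodes (1.88, adjusted p = 0.0880). At 1500 UMIs per cell, 18.4% and 15.3% of the AQP4 cells of D45 held a SOX9 UMI, against 1.06% and 2.28% of the LUM cells (unthinned 69.6% and 65.8% against 13.5% and 17.1%, at medians of 14963.5 and 14931 against 14137.5 and 14220 UMIs per cell). OLIG1 cells held SOX9 at 249 and 230 CPM at D28 and 110 and 84.5 CPM at D45.

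In CORIN cells SOX9 was at 11.7, 10.3, 33.1, 21.4, 45.3 and 26.1 CPM. D28 was above D11 by 1.28 ± 0.33 on the log2 scale (adjusted p = 0.0266), and the replicates of the 2 days did not overlap. The fibroblast-marker cells, 31.0% of the CORIN cells of D28 A and 7.48% of those of D28 B, held 42.2% and 14.0% of their SOX9 UMIs, and without these cells the rise was 1.16 (adjusted p = 0.0202). Without D11 A or D11 B it was 1.34 or 1.22 and did not pass, and without D28 A it was 0.78. It did not pass with all barcodes (1.27, adjusted p = 0.0528) or in thinned cells (1.05, adjusted p = 0.242) either. At 1500 UMIs per cell 1.54%, 1.40%, 4.02%, 2.98%, 3.25% and 1.86% of CORIN cells held a SOX9 UMI, against 2.34%, 4.33%, 6.99%, 7.03%, 1.06% and 2.28% of LUM cells. Apart from D45 A these shares lie below those of LUM cells, and the level in LUM cells moved the same way, from 13.2 and 16.4 CPM at D11 to 44.1 and 58.0 CPM at D28. The LUM gate is not exclusive of the CORIN, STMN2, TH and AQP4 groups, so that a cell can be counted in both. LUM cells are no SOX9-free reference, since at D28 they held more SOX9 than the kept cells as a whole (32.4 and 34.2 CPM), and at D11 their summed floor plate markers were at 3251 and 2534 CPM, close to the 3761 and 3117 CPM of CORIN cells. The part of free RNA in the SOX9 of CORIN cells was not tested. D45 against D28 did not pass (0.27 ± 0.34, adjusted p = 0.622). In TH cells, by contrast, SOX9 fell from 13.6 and 14.0 CPM at D11 to 5.93 and 8.40 CPM at D28 (-1.14 ± 0.30, adjusted p = 0.0349), from 79, 89, 38 and 63 UMIs, and stood at 11.2 and 16.1 CPM at D45. The TH gate held unlike cells on these days, with summed floor plate markers at 118 and 101 CPM at D11 and 513 and 441 CPM at D28. Their part in the fall was not tested. At 1500 UMIs per cell 3.42% and 2.28% of TH cells at D11 and 0.639% and 1.40% at D28 held a SOX9 UMI, which is below the LUM cells of the same libraries apart from D11 A, and the part of free RNA was not tested here either. The fall did not pass without D11 A or D11 B (adjusted p = 0.168 and 0.220) or with a gate of 1 TH UMI. TH cells held less SOX9 than STMN2 cells (-0.97 ± 0.21, adjusted p = 0.00938), and STMN2 cells showed no call between days.

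SOX11 marked the neuronal groups. Over all kept cells it was at 66.3, 61.1, 46.4, 78.996, 73.9 and 55.5 CPM, with overlapping days and no call (log2 fold changes from -0.39 to -0.08, adjusted p from 0.211 to 0.825). Without D28 B, D28 against D11 was -0.60, D45 against D11 was -0.40, and D45 against D28 turned to 0.20. Without D28 A the same values were -0.062, -0.34 and -0.28. Within STMN2 cells it was at 138, 129, 84.3, 149, 121 and 96.1 CPM and within TH cells at 125, 135, 103, 133, 115 and 76.8 CPM. TH and STMN2 cells were not told apart (0.02 ± 0.08, adjusted p = 0.914), and the sign of this difference turned under 8 of 18 alternatives. In STMN2 cells D45 against D11 gave -0.61 ± 0.25 (adjusted p = 0.108), which passed without D28 A or D28 B (-0.57 and -0.61, adjusted p = 0.00807 and 0.00660).

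CORIN cells lost SOX11 between D11 and D28. The level was 36.9 and 36.8 CPM at D11, 11.5 and 14.9 CPM at D28 and 12.8 and 16.2 CPM at D45. The fall to D28 was -1.55 ± 0.20 on the log2 scale (adjusted p = 0.00163), and it passed in 17 of 18 alternatives, the exception being cells thinned to 1500 UMIs (-1.58, adjusted p = 0.0725). From D28 to D45 the change was 0.12 ± 0.22 (adjusted p = 0.743), but the levels of D45 rested on 28 and 80 UMIs, of which the fibroblast-marker cells held 53.6% and 77.5%, and without them D45 was at 8.76 and 8.91 CPM. The cells with oligodendrocyte-lineage markers held 50.0% and 61.3% of the same UMIs, and without them the levels were 9.25 and 10.9 CPM and the change from D28 was -0.44 (adjusted p = 0.260). The sum of the mitotic markers TOP2A and CENPF moved with SOX11 in CORIN cells, from 624 and 600 CPM at D11 to 38.2 and 28.7 CPM at D28, and that of the neuron markers went the other way, from 122 and 136 CPM to 243 and 285 CPM. Their part in the fall was not tested. At 1500 UMIs per cell, 5.67% and 5.07% of CORIN cells at D11 and 2.40% and 2.43% at D28 held a SOX11 UMI, against 7.03%, 6.73%, 2.10% and 3.91% of the LUM cells of the same libraries (unthinned 34.4%, 33.5%, 17.0% and 20.1% against 31.2%, 38.3%, 19.5% and 29.7%). The thinned shares lie below those of LUM cells apart from D28 A, the unthinned ones apart from D11 A, and the level in LUM cells went from 29.0 and 40.1 CPM to 17.7 and 21.1 CPM. The LUM cells of D11 held SOX5 at 586 and 429 CPM and SOX6 at 449 and 338 CPM, close to CORIN cells, so that they are no clean reference on that day, and the part of free RNA in the SOX11 of CORIN cells was not tested.

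Against STMN2 cells of the same libraries SOX11 was lower in CORIN cells, with a difference of -2.38 ± 0.22 on the log2 scale (adjusted p = 0.000134), and in AQP4 cells, with -1.87 ± 0.18 (adjusted p = 0.000468). Both differences kept their call in all alternatives, 18 and 15, with ranges of -2.60 to -2.03 and -2.40 to -1.71. AQP4 cells held 24.9 CPM in each D45 library. Against CORIN cells the difference did not pass (0.80 ± 0.21, adjusted p = 0.174). It did without fibroblast-marker cells (1.41, adjusted p = 0.0149), in a fit that held D45 A and B only.

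The change of the CORIN-to-STMN2 difference between D11 and D28 was tested as an interaction. It was -1.09 ± 0.16 for SOX11 (adjusted p = 0.00665), with a fall in CORIN cells and -0.43 ± 0.24 in STMN2 cells (adjusted p = 0.298). The STMN2 value was -0.74 without D28 B and -0.16 without D28 A. For SOX9 the interaction was 1.03 ± 0.24 (adjusted p = 0.0289), with a rise in CORIN cells and 0.21 ± 0.19 in STMN2 cells (adjusted p = 0.519). SOX5 (-0.22 ± 0.16, adjusted p = 0.387) and SOX6 (-0.04 ± 0.34, adjusted p = 0.950) did not pass. Without D28 A they were -0.42 and -0.59. Without D28 B SOX5 was -0.037 and SOX6 turned to 0.51, so that no direction is read for SOX6. The spread in the fits without a D28 library comes from the D11 libraries alone. Leaving out D11 B ended both calls (adjusted p = 0.0626 and 0.217), and leaving out D11 A ended that of SOX9 (adjusted p = 0.157). In thinned cells the SOX9 value was 2.16, but there SOX9 turned to -1.05 in STMN2 cells and its rise in CORIN cells did not pass. The SOX11 value was -1.42 in thinned cells and did not pass (adjusted p = 0.102).

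**Figure D3:**
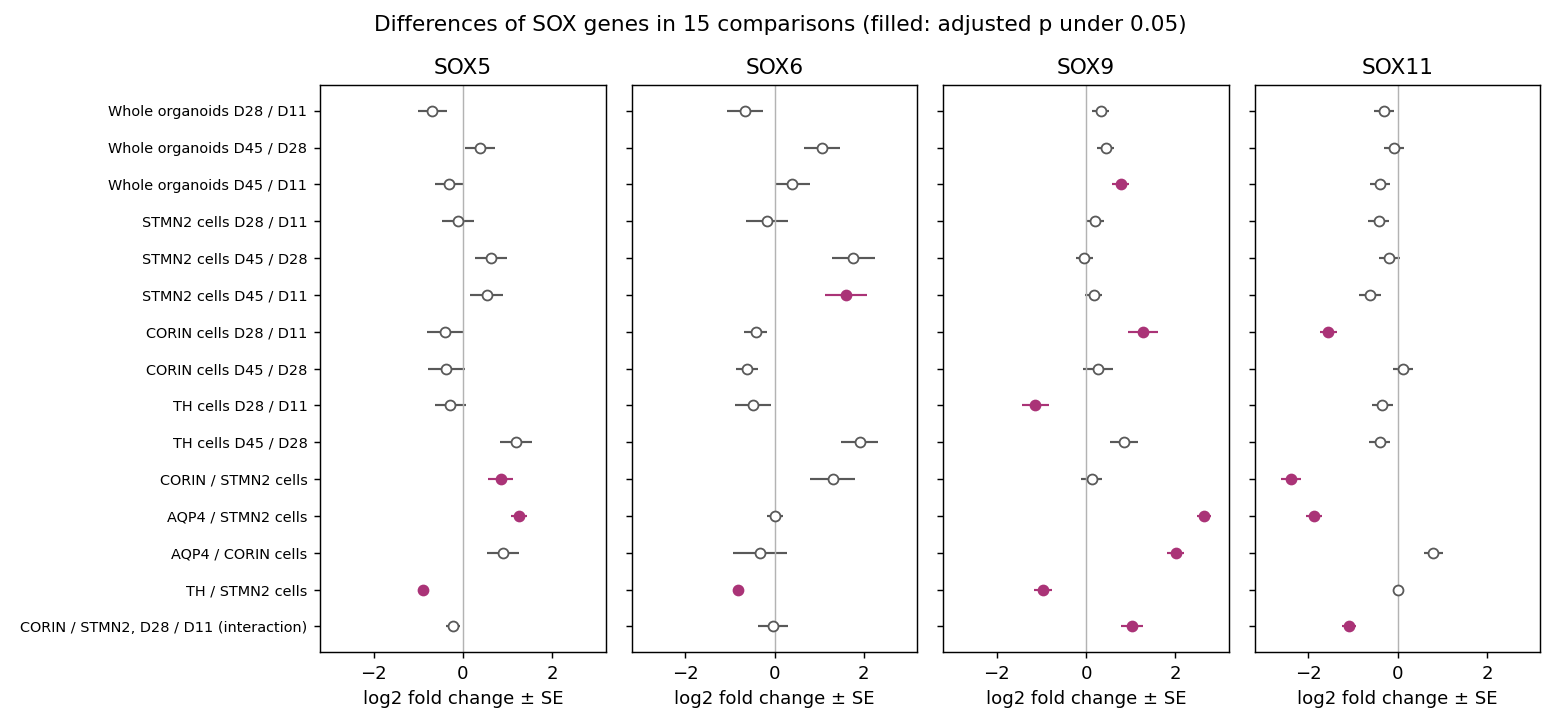
Log2 fold change ± SE of SOX5, SOX6, SOX9 and SOX11 in the 15 comparisons, from edgeR's quasi-likelihood test on counts summed per library. Filled points have an adjusted p under 0.05, and positive values mean higher in the first-named group or day. The largest differences are SOX9 in AQP4 against STMN2 cells (2.64) and SOX11 in CORIN against STMN2 cells (-2.38).

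**Figure D4:**
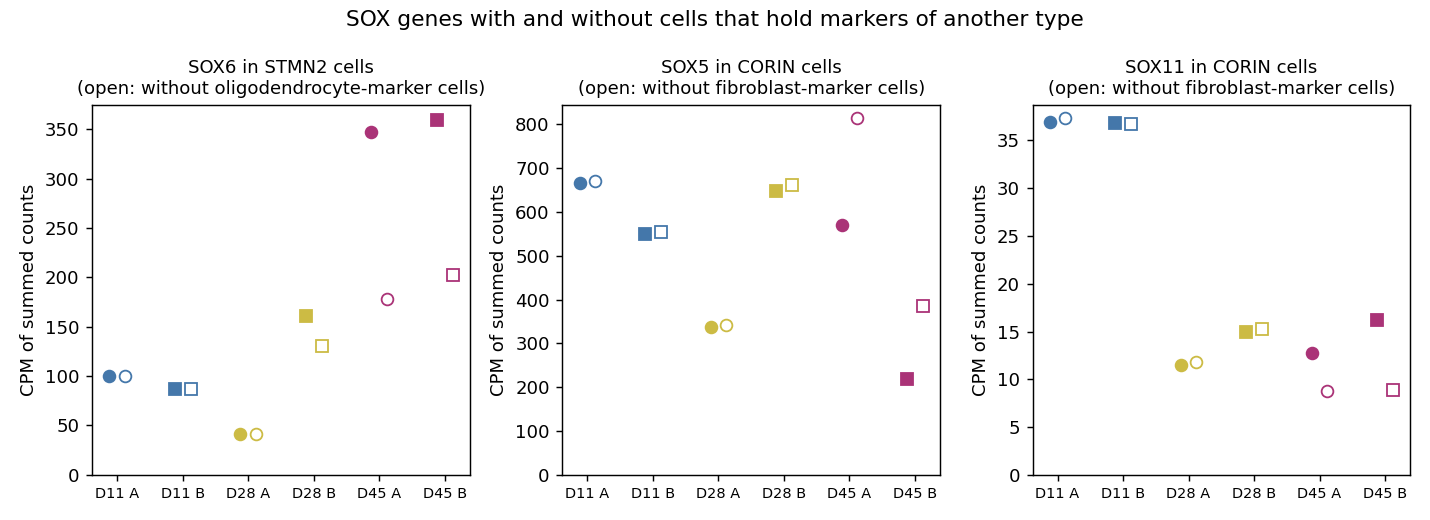
Level of SOX6 in STMN2 cells and of SOX5 and SOX11 in CORIN cells in each library (CPM of summed counts, axis from 0; blue, D11; yellow, D28; purple, D45; circle, replicate A; square, replicate B). Filled points use all cells of the group and open points leave out cells with at least 3 UMIs of oligodendrocyte-lineage markers (left) or fibroblast markers (middle and right). SOX6 in STMN2 cells of D45 goes from 347 and 359 CPM to 178 and 203 CPM, whereas D11 hardly moves.

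UMIs of the pairs SOX5 and SOX6, SOX5 and SOX11, and SOX6 and SOX9 were found under the same cell barcodes. At 1500 UMIs per cell, 45.2% and 42.3% of the CORIN cells of D11 with a SOX5 UMI also held a SOX6 UMI, against 42.7% and 39.9% of all CORIN cells there. In STMN2 cells of D45 the figures were 26.9% and 29.8% against 19.7% and 21.1%, and SOX11 was found in 14.6% and 13.4% of those with SOX5 against 16.6% and 13.9% of all. In the OLIG1 cells of D45, 68.9% and 75.3% of the cells with a SOX9 UMI held SOX6, near the 76.9% and 80.7% of all OLIG1 cells. Detection at this depth is sparse, and these shares are descriptions. Called doublets stayed in, and the part of free RNA was not tested. Over the 21 library sums of the 4 groups, Pearson's r of the log2 levels was 0.85 between SOX5 and SOX6, 0.59 between SOX5 and SOX9, and -0.55 between SOX5 and SOX11. The sums of a group share libraries and cell type, and r has no test here.

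Among 7360 genes with a mean of at least 20 CPM over these sums, the genes most like each member were named by the highest r. For SOX5 these were IFT80 (0.94), CAPS2 (0.92) and NSUN7 (0.92), and for SOX6 PRKD1 (0.94), NEK7 (0.94) and TMEM135 (0.93). For SOX9 they were GLUD1 (0.92), TTYH1 (0.92) and DBI (0.92), and for SOX11 ELAVL4 (0.97), SCN1A (0.97) and ARHGAP33 (0.97). ELAVL4 encodes a neuronal RNA-binding protein, SCN1A a sodium channel, and GLUD1 glutamate dehydrogenase. For SOX3 they were MTPAP (0.95), SCCPDH (0.94) and CFAP94 (0.91), at a mean of 0.321 CPM for SOX3.

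Of 12 other SOX genes listed, 8 were matched by symbol and 6 passed the filter on low counts in whole organoids. SOX8, SOX10, SOX14 and SOX18 were called higher and SOX13 and SOX21 lower at D28 than at D11, and at D45 against D11 the same 4 were called higher and SOX13 lower. The median log2 fold change of the 6 was 1.47 and 2.91, against 0.03 and -0.01 over all genes tested, of which 23.1% and 34.6% were called. SOX10, an E-group factor of the oligodendrocyte lineage, was at 1.81, 1.88, 3.42, 10.8, 64.1 and 55.3 CPM and rose by 4.60 ± 0.47 on the log2 scale from D11 to D45 (adjusted p = 0.000759). OLIG1 cells held it at 275 and 267 CPM at D45, STMN2 cells at 39.8 and 35.4 CPM, and AQP4 cells at 4.72 and 9.69 CPM. Its rise in STMN2 cells (3.65 ± 0.32, adjusted p = 0.000617) went with the oligodendrocyte-lineage markers given above. SOX8, the E-group relative of SOX9, rose by 2.12 ± 0.23 in whole organoids from D11 to D45 (adjusted p = 0.000918).

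Of 26 genes listed as acting with or after SOX factors in neural cells, 24 were matched and 23 tested in whole organoids, and 7 were higher and 9 lower at D45 than at D11 (median -0.59, against -0.01 over all genes, of which 34.6% were called). Among the genes that were higher stood MBP of myelin (8.85 ± 1.35), GFAP of astrocytes (6.94 ± 0.51) and the gliogenic factors NFIX (7.94 ± 0.54), NFIB (3.15 ± 0.21) and NFIA (0.90 ± 0.20). Among those that were lower stood NES, an intermediate filament of progenitors (-3.74 ± 0.30), the Notch targets HES1 (-2.31 ± 0.33) and HES5 (-2.07 ± 0.31), and the proneural factor NEUROD4 (-4.86 ± 0.59). In CORIN cells, at D28 against D11, 8 of 21 tested genes of this list were called (median 0.07, against 0.05 over all genes, of which 25.8% were called). NFIX (7.39 ± 0.43), GFAP (2.75 ± 0.68), NFIB (2.42 ± 0.19), FABP7 (1.91 ± 0.49) and NFIA (1.55 ± 0.22) were higher, and HES5 (-2.83 ± 0.42), CCND1 (-1.61 ± 0.31) and NES (-1.45 ± 0.27) lower. In AQP4 against STMN2 cells 21 of 22 were called, 14 higher and 7 lower (median 1.28, against -0.05 over all genes, of which 37.4% were called), with GFAP (3.97 ± 0.18), FABP7 (2.12 ± 0.42) and HES1 (2.04 ± 0.19) higher and NEUROD4 (-7.38 ± 1.56), TUBB3 (-2.29 ± 0.41) and DCX (-0.99 ± 0.26) lower. In TH against STMN2 cells 14 of 21 were called (median -0.79, against 0.01 over all genes, of which 25.7% were called), with TUBB3 and CDKN1A higher and the other 12 lower in TH cells, among them NEUROD4 (-4.15 ± 0.22), HES1 (-1.86 ± 0.13) and FABP7 (-1.19 ± 0.10).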

How the data were processed

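Single-cell RNA was counted in 6 libraries of pMLOs, with 2 libraries at each of 3 days. The deposited matrices hold raw UMI counts per gene and cell barcode, which the authors made with Cell Ranger 8.0.1 by alignment to Sscrofa11.1. The annotation release is not given in the sources used here. Seurat 4.3.0 is named in the submitters' processing notes, and no annotation of cells was used.

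Cells with 200 to 7000 detected genes and at most 10% of counts from 37 mitochondrial genes, taken by their identifiers, were kept. Called doublets (5.67% to 8.72% of the barcodes of a library, the highest Scrublet scores) stayed in and were left out as an alternative. Counts were summed per library and gate, with at least 20 cells per sum, and tested as counts with edgeR 4.0.16 (quasi-likelihood, TMM, filterByExpr, R 4.3.3). Days were compared with day as the term and gates with the library as a block. DESeq2 1.42.0 was an alternative, beside other normalization, filters, gates, cells thinned to 1500 UMIs before gating and leaving out each library. With 2 libraries against 2, an exact permutation test of 1 gene cannot go below p = 0.333. The unit CPM scales a gene's summed UMIs by the total of its cells. Intervals are exact at the 95% level, and a count of 0 was read as up to 3 counts, both for counting error only.

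The genes named are the listed members, 12 other SOX genes, 26 related neural genes, the marker lists and, for each member, the 3 genes of highest Pearson r of log2(CPM + 1). From the 2 longer lists the text names examples of the called genes. The members and lists were chosen with earlier results of these data known. Replicate letters were checked for pairing, and the test steps were tested on simulated data. A marker gene of the oligodendrocyte lineage and a stretch of sequence are not reported here, and the marker sums were computed without that gene.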

Additional observations from a re-analysis of the deposited data

Results flagged for a closer look

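The difference between CORIN and STMN2 cells changed from D11 to D28 for 2 members, as tested by the interaction of day and cell group in edgeR's quasi-likelihood test. The same test called 22.4% of all genes tested. For SOX11 the change was -1.09 ± 0.16 on the log2 scale (adjusted p = 0.00665), with 36.9 and 36.8 CPM in CORIN cells at D11 and 11.5 and 14.9 CPM at D28, against 138, 129, 84.3 and 149 CPM in STMN2 cells. For SOX9 it was 1.03 ± 0.24 (adjusted p = 0.0289), with 11.7, 10.3, 33.1 and 21.4 CPM in CORIN cells and 18.7, 18.6, 24.4 and 25.1 CPM in STMN2 cells. The SOX11 call was lost without D11 B (adjusted p = 0.0626) and in thinned cells (adjusted p = 0.102). The SOX9 call was lost without D11 A (adjusted p = 0.157) and without D11 B (adjusted p = 0.217). LUM cells, which are no clean reference for either gene, moved the same way as CORIN cells, from 13.2 and 16.4 CPM to 44.1 and 58.0 CPM for SOX9 and from 29.0 and 40.1 CPM to 17.7 and 21.1 CPM for SOX11, and the part of free RNA was not tested. The LUM gate does not exclude CORIN cells, so that a cell can be in both groups.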

How the results depend on the processing

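The sign of SOX11 and SOX9 in AQP4 against STMN2 cells and of SOX11 in CORIN against STMN2 cells, and their calls, were kept under all 15, 15 and 18 alternatives that were run. Over all members, comparisons and alternatives, 937 values kept sign and call, 44 lost the call, 59 gained it and 67 turned sign. The causes were not tested. Where a library is left out, a day or group may hold 1 library, which is then assumed to vary like the others. A library with under 20 cells in a group also drops out of the fit of an alternative. This held for the AQP4 cells of D28 A without fibroblast-marker cells (4 cells) and after thinning (1 cell), and for the thinned CORIN cells of D45 A (18 cells). The letters did not pair the libraries: deviations of libraries with the same letter correlated at -0.55 (D11 and D28), 0.20 (D11 and D45) and -0.35 (D28 and D45). With the letter as block the SOX6 call in STMN2 cells D45/D11 was lost, and with the letter in place of the library so were those of SOX5 (CORIN/STMN2, AQP4/STMN2 and TH/STMN2 cells), SOX6 (TH/STMN2 cells), SOX9 (AQP4/CORIN and TH/STMN2 cells) and SOX9 and SOX11 (the CORIN-to-STMN2 change), with an adjusted p from 0.0604 to 0.858. AQP4 cells were not compared between D45 and D28, for lack of cells at the gate used. With lower gates D28 B held 21 AQP4 cells and with overlapping gates 20, but no test was run on these. Among the sums of the reported tests, leaving the alternatives aside, depth was least in the 29 AQP4 cells of D28 A (568125 UMIs). Taking the mean of the per-cell CPM in place of the CPM of summed counts moved 16 of 65 levels by at least 1 SD between the replicates. Of the 65 percentages of cells with a UMI, thinning to 1500 UMIs moved 59 and requiring 2 UMIs moved 54 by as much. Both steps lower detection by their design, so that these counts are not a test of the percentages. The alternatives without other-type cells and with crossed letters were chosen after seeing the data. As reported, the genes called were 5131 (whole organoids D28/D11), 2086 (whole organoids D45/D28), 7687 (whole organoids D45/D11), 2054 (STMN2 cells D28/D11), 231 (STMN2 cells D45/D28), 4586 (STMN2 cells D45/D11), 4513 (CORIN cells D28/D11), 3023 (CORIN cells D45/D28), 2272 (TH cells D28/D11), 190 (TH cells D45/D28), 7870 (CORIN/STMN2 cells), 6397 (AQP4/STMN2 cells), 95 (AQP4/CORIN cells), 3800 (TH/STMN2 cells) and 4212 (the CORIN-to-STMN2 change D28/D11).

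With DESeq2, the genes called were 4336 (whole organoids D45/D28), 3189 (STMN2 cells D28/D11), 1781 (STMN2 cells D45/D28), 698 (TH cells D45/D28) and 870 (AQP4/CORIN cells). The members called were 1 (whole organoids D45/D28), 2 (whole organoids D45/D11), 1 (STMN2 cells D45/D28) and 2 (TH cells D45/D28). The sign turned for SOX6 -0.033 (AQP4/STMN2 cells). With DESeq2 size factors in edgeR, a sign change was seen for SOX6 -0.032 (AQP4/STMN2 cells). Without a filter on low counts, the genes called were 1552 (STMN2 cells D45/D28), 4665 (CORIN cells D45/D28), 1766 (TH cells D45/D28) and 950 (AQP4/CORIN cells). Members called numbered 1 (STMN2 cells D45/D28), 1 (CORIN cells D45/D28) and 2 (TH cells D45/D28). Signs were opposite for SOX6 -0.045 (AQP4/STMN2 cells) and SOX11 -0.041 (TH/STMN2 cells). With the replicate letter as a block, the genes called were 3314 (whole organoids D28/D11), 628 (whole organoids D45/D28), 1238 (STMN2 cells D28/D11), 28 (STMN2 cells D45/D28) and 109 (TH cells D45/D28). Calls of members came to 0 (STMN2 cells D45/D11). Opposite in sign were SOX3 -0.046 (whole organoids D28/D11). With the letter in place of the library as block, the genes called were 4557 (CORIN/STMN2 cells), 1851 (AQP4/STMN2 cells), 4 (AQP4/CORIN cells), 99 (TH/STMN2 cells) and 624 (the CORIN-to-STMN2 change D28/D11). Called members were 1 (CORIN/STMN2 cells), 0 (AQP4/CORIN cells), 0 (TH/STMN2 cells) and 0 (the CORIN-to-STMN2 change D28/D11). The sign turned for SOX6 -0.011 (AQP4/STMN2 cells). With the letters of D28 crossed, the genes called were 4066 (whole organoids D45/D28). The members called were 1 (whole organoids D45/D28) and 2 (whole organoids D45/D11). A sign change was seen for SOX3 -0.073 (whole organoids D28/D11). With all barcodes, the genes called were 1986 (CORIN cells D45/D28), 123 (TH cells D45/D28) and 39 (AQP4/CORIN cells). Members called numbered 0 (STMN2 cells D45/D11), 1 (CORIN cells D28/D11) and 0 (AQP4/CORIN cells). Signs were opposite for SOX11 -0.050 (TH/STMN2 cells). Without called doublets, opposite in sign were SOX9 0.0086 (STMN2 cells D45/D28). With lower gates (1 CORIN, 2 STMN2, 1 AQP4 or 1 TH UMI), the genes called were 297 (TH cells D45/D28) and 546 (AQP4/CORIN cells). Calls of members came to 0 (STMN2 cells D45/D11) and 0 (TH cells D28/D11). The sign turned for SOX9 -0.11 (CORIN/STMN2 cells), SOX6 -0.095 (AQP4/STMN2 cells) and 0.029 (the CORIN-to-STMN2 change D28/D11) and SOX3 0.33 (the CORIN-to-STMN2 change D28/D11). With higher gates (3, 5, 3 or 3 UMIs), the genes called were 59 (TH cells D45/D28), 179 (AQP4/CORIN cells) and 2291 (TH/STMN2 cells). Called members were 0 (STMN2 cells D45/D11) and 1 (TH cells D45/D28). A sign change was seen for SOX9 -0.13 (STMN2 cells D45/D11), SOX11 -0.068 (CORIN cells D45/D28) and -0.17 (TH/STMN2 cells), SOX3 0.21 (the CORIN-to-STMN2 change D28/D11) and SOX6 0.063 (the CORIN-to-STMN2 change D28/D11). With overlapping gates, the genes called were 572 (STMN2 cells D45/D28) and 715 (AQP4/CORIN cells). Signs were opposite for SOX9 0.21 (STMN2 cells D45/D28), SOX11 -0.085 (CORIN cells D45/D28) and SOX6 -0.15 (AQP4/STMN2 cells). With cells thinned to 1500 UMIs and gated on the thinned counts, the genes called were 1255 (whole organoids D45/D28), 2651 (STMN2 cells D45/D11), 1201 (CORIN cells D28/D11), 256 (TH cells D28/D11), 30 (TH cells D45/D28), 3747 (CORIN/STMN2 cells), 250 (TH/STMN2 cells) and 1082 (the CORIN-to-STMN2 change D28/D11). The members called were 0 (STMN2 cells D45/D11), 0 (CORIN cells D28/D11), 0 (TH cells D28/D11), 1 (TH/STMN2 cells) and 1 (the CORIN-to-STMN2 change D28/D11). Opposite in sign were SOX3 -0.58 (whole organoids D28/D11), SOX11 0.016 (whole organoids D28/D11) and -0.22 (TH/STMN2 cells), SOX9 -1.05 (STMN2 cells D28/D11), 0.16 (STMN2 cells D45/D28) and -0.89 (STMN2 cells D45/D11), SOX5 0.045 (the CORIN-to-STMN2 change D28/D11) and SOX6 0.29 (the CORIN-to-STMN2 change D28/D11). Without fibroblast-marker cells, the genes called were 464 (STMN2 cells D45/D28), 1923 (CORIN cells D45/D28), 9855 (AQP4/STMN2 cells) and 1963 (AQP4/CORIN cells). Members called numbered 2 (AQP4/CORIN cells). The sign turned for SOX9 0.13 (STMN2 cells D45/D28), SOX5 0.17 (CORIN cells D45/D28), SOX6 0.0021 (CORIN cells D45/D28), -0.087 (AQP4/STMN2 cells) and 0.081 (the CORIN-to-STMN2 change D28/D11) and SOX11 -0.70 (CORIN cells D45/D28) and -0.025 (TH/STMN2 cells). Without oligodendrocyte-marker cells, the genes called were 1901 (CORIN cells D45/D28) and 464 (AQP4/CORIN cells). Calls of members came to 0 (STMN2 cells D45/D11). A sign change was seen for SOX9 -0.087 (STMN2 cells D45/D11), SOX5 0.099 (CORIN cells D45/D28), SOX11 -0.44 (CORIN cells D45/D28) and -0.037 (TH/STMN2 cells) and SOX6 0.11 (the CORIN-to-STMN2 change D28/D11).

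When each library was left out in turn, the genes called ranged over 1112 to 10545 (whole organoids D28/D11), 0 to 10003 (whole organoids D45/D28), 2804 to 12286 (whole organoids D45/D11), 238 to 6955 (STMN2 cells D28/D11), 0 to 7672 (STMN2 cells D45/D28), 812 to 8933 (STMN2 cells D45/D11), 1426 to 8022 (CORIN cells D28/D11), 721 to 6556 (CORIN cells D45/D28), 664 to 3928 (TH cells D28/D11), 31 to 3567 (TH cells D45/D28), 2992 to 9847 (AQP4/STMN2 cells), 0 to 3260 (AQP4/CORIN cells) and 891 to 8094 (the CORIN-to-STMN2 change D28/D11). The members called ranged over 0 to 3 (whole organoids D28/D11), 0 to 3 (whole organoids D45/D28), 0 to 4 (whole organoids D45/D11), 0 to 3 (STMN2 cells D28/D11), 0 to 3 (STMN2 cells D45/D28), 0 to 4 (STMN2 cells D45/D11), 1 to 3 (CORIN cells D28/D11), 0 to 1 (CORIN cells D45/D28), 0 to 3 (TH cells D28/D11), 0 to 2 (TH cells D45/D28), 1 to 3 (CORIN/STMN2 cells), 0 to 3 (AQP4/CORIN cells) and 0 to 4 (the CORIN-to-STMN2 change D28/D11). The sign of a member turned in such fits for SOX3 -1.34 to 0.71 (whole organoids D28/D11), -1.80 to 6.47 (STMN2 cells D28/D11) and -5.95 to 0.64 (the CORIN-to-STMN2 change D28/D11), SOX5 -0.78 to 0.36 (STMN2 cells D28/D11), -1.13 to 0.093 (CORIN cells D45/D28) and -0.88 to 0.13 (TH cells D28/D11), SOX6 -1.27 to 0.46 (STMN2 cells D28/D11), -1.45 to 0.084 (TH cells D28/D11), -0.098 to 0.15 (AQP4/STMN2 cells), -0.82 to 0.42 (AQP4/CORIN cells) and -0.59 to 0.51 (the CORIN-to-STMN2 change D28/D11), SOX11 -0.28 to 0.20 (whole organoids D45/D28), -0.41 to 0.13 (STMN2 cells D45/D28), -0.18 to 0.31 (CORIN cells D45/D28) and -0.055 to 0.050 (TH/STMN2 cells), SOX9 -0.14 to 0.098 (STMN2 cells D45/D28), -0.092 to 0.72 (CORIN cells D45/D28) and -0.074 to 0.27 (CORIN/STMN2 cells).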
